A study of Homo sapiens with 2 samples.

Results

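The DHRS2 line is 1 of 5 human lung adenocarcinoma lines (H2228, H1975, A549, H838 and HCC827) that were grown apart, frozen as single cells, mixed in equal parts and captured together for joint RNA and ATAC sequencing. The labels do not say which of the 5 lines carries DHRS2, so the line is called by that gene. The capture was split into fractions of 80% and 20%, and the 1 RNA and 1 ATAC library of the 80% fraction are described here. Both libraries share all 3298 barcodes of the joint matrix, over 36601 genes and 187920 peaks.

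A barcode was assigned to the DHRS2 line when it had at least 2000 UMIs (unique molecular identifiers, 1 per captured RNA molecule) outside the mitochondrial MT- genes, at least 1000 peak counts, and at least 2 UMIs of DHRS2, NALCN-AS1, ZNF676 and PLK5 together, over 3 times the sum of 8 markers of the other lines. Of 3298 barcodes 310 met this rule. The nucleus-like group held the 77 barcodes whose MT- share of UMIs was under 1%, and the cytoplasm-keeping group the 169 barcodes with a share of 4 to 20%, so 246 barcodes were compared. The names stand for that share alone. Nucleus-like barcodes reached up to 0.994%, the 6 barcodes between the groups had 1.23 to 3.99%, cytoplasm-keeping barcodes had 4.45 to 19.98%, and the other 58 had 20.1 to 42.5%. The MT- share and the 12 marker genes chose the members, and are given as a description only. Each line was 1 culture and each assay 1 library, so no p-value was computed. Intervals are exact Poisson intervals at 95% and cover counting error only.

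In a droplet assay, a whole cell gives cytoplasmic and nuclear RNA, while a nucleus stripped of its cytoplasm gives mainly unspliced and nuclear-retained RNA. Mitochondrial transcripts lie outside the nucleus. Messenger RNAs of secreted and membrane proteins are translated at the endoplasmic reticulum, whose membrane is continuous with the nuclear envelope. MALAT1 and NEAT1 are long noncoding RNAs that stay in nuclear speckles and paraspeckles, and PVT1 is a long noncoding RNA transcribed beside the MYC oncogene.

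Many cytoplasm-keeping barcodes also held chromatin of a second line. When the ATAC counts of each barcode were divided among the profiles of the 5 lines, 15% or more went to 1 other line in 7 of 77 nucleus-like and 79 of 169 cytoplasm-keeping barcodes. These mixed cytoplasm-keeping barcodes had a median of 36754 UMIs and 68732 peak counts, and the profile of the S100A9 line took a median of 25.2% of their ATAC counts. Scrublet, a doublet caller, removed 0 nucleus-like and 1 cytoplasm-keeping barcode. Values below are therefore given for the 70 nucleus-like and 90 cytoplasm-keeping unmixed barcodes, with the counts of each list over all barcodes of the rule ("by the rule") beside them. That restriction was chosen after the data were seen. One mixed nucleus-like barcode stood apart, with 16205 UMIs, 19.8% of them from ribosomal protein genes against at most 5.37% in any other nucleus-like barcode. It gave 93 of the 97 ISG15 UMIs and 50 of the 57 IFIT3 UMIs of all nucleus-like barcodes.

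**Figure D1:**
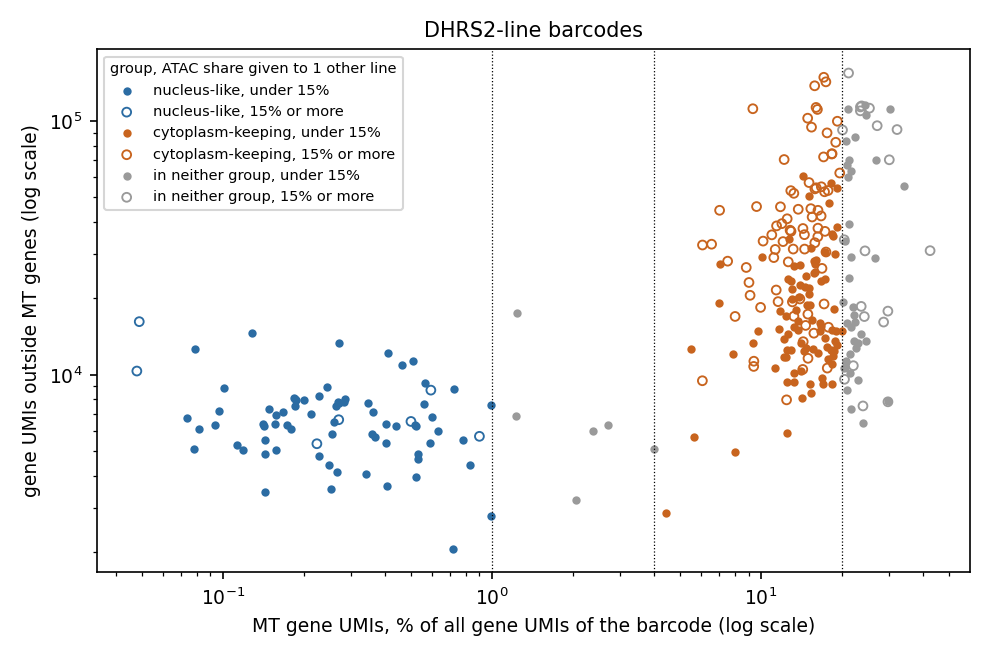
Mitochondrial share of UMIs (percent, log axis) against UMIs outside MT- genes (log axis) for the 310 barcodes of the DHRS2 line, filled where under 15% and open where 15% or more of the ATAC counts went to 1 other line, with dotted lines at 1, 4 and 20%. The 6 barcodes between 1 and 4% lie in a sparse zone, and open circles crowd at the upper right.

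Among genes that the rule did not use, TGFBI, a secreted matrix protein, had 1657 CPM (UMIs per 1000000 UMIs outside MT- genes) in the 166 unmixed DHRS2-line barcodes with an MT- share of up to 20%, against 202 to 598 CPM in those of the other 4 lines. Most UMIs of that pool came from cytoplasm-keeping barcodes. TGFBI had 682 CPM at an MT- share under 0.5% and 577 CPM at 0.5 to 1%, near the upper end of the other lines. It thus does not set the nucleus-like barcodes clearly apart from them. DHRS2 itself, a short-chain dehydrogenase, had 223 CPM in nucleus-like and 391 CPM in cytoplasm-keeping unmixed barcodes. NALCN-AS1, an antisense noncoding RNA, had 440 CPM in nucleus-like and 284 CPM in cytoplasm-keeping barcodes. Red cell markers were at 0 UMIs in both unmixed groups. The 7 fibroblast markers summed to 23.2 CPM in nucleus-like and 192 CPM in cytoplasm-keeping barcodes, nearly all from the collagen genes COL1A1 and COL1A2, with COL3A1, DCN and LUM at 0 UMIs in both groups. The 12 immune markers summed to 37.9 CPM in nucleus-like and 95.6 CPM in cytoplasm-keeping barcodes, nearly all from CD68, CD14 and CSF1R, with PTPRC, CD3D, CD3E, MS4A1, LYZ, TYROBP and NKG7 at 0 UMIs in both. The 8 endothelial markers summed to 63.2 CPM in nucleus-like and 19.5 CPM in cytoplasm-keeping barcodes, nearly all from PECAM1 (27 UMIs in nucleus-like and 28 UMIs in cytoplasm-keeping barcodes), with EMCN, CLDN5 and TEK at 0 UMIs in both.

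Unmixed nucleus-like barcodes carried less RNA for a similar amount of open chromatin. They had 2068 to 14669 UMIs with a median of 6378, against 2857 to 60969 with a median of 15258 in cytoplasm-keeping barcodes. Peak counts had medians of 26933 in nucleus-like and 30849 in cytoplasm-keeping barcodes. The median number of UMIs per 1000 peak counts was 247 in nucleus-like and 516 in cytoplasm-keeping barcodes. MT- genes made up 0.316% of all UMIs in nucleus-like and 15.2% in cytoplasm-keeping barcodes. The makeup of the few remaining mitochondrial UMIs was close for most genes: MT-CO2, a cytochrome oxidase subunit, gave 25.8% of them in nucleus-like and 24.98% in cytoplasm-keeping barcodes. MT-ND4, a subunit of complex I, gave 7.77% (interval 6.43 to 9.32%) in nucleus-like and 11.9% in cytoplasm-keeping barcodes. CPM are shares of the UMIs outside MT- genes, so a gene with a higher CPM in nucleus-like barcodes can still have fewer UMIs per barcode there.

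Genes were counted as different at a 2-fold change of CPM + 1, nucleus-like over cytoplasm-keeping. Over all barcodes of the rule, 11598 genes had at least 50 UMIs, of which 438 (3.78%) were at least 2-fold higher and 1323 (11.4%) at least 2-fold lower in nucleus-like barcodes. Among unmixed barcodes 8065 genes were measured, of which 175 (2.17%) were higher and 784 (9.72%) lower. The balance depended on depth: with 2000 to 8000 UMIs per barcode, which left 60 nucleus-like and 5 cytoplasm-keeping barcodes of the rule, 303 of 1841 measured genes were higher and 124 lower, while with 2000 to 12000 UMIs and mixed barcodes left out, 173 of 3142 were higher and 323 lower. The 2 sets of lower genes shared 522, which is 39.5% of the 1323 and 66.6% of the 784. The 10 genes with the lowest ratio by the rule, IRAK3, MEG3, FAM155A, LINC02163, BIRC3, PDE10A, EHF, CASC9, TIMP3 and LINC02315, were all at 0 UMIs in nucleus-like barcodes. MEG3, a noncoding RNA, had 99.0 CPM in all cytoplasm-keeping barcodes but 1.15 CPM in the unmixed ones and 147 CPM in the mixed ones. LCN2, a secreted siderophore-binding protein, was lower by the rule (log2 ratio -1.70) and higher in unmixed barcodes (1.22), with 369 CPM in nucleus-like and 158 CPM in cytoplasm-keeping barcodes.

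Most messenger RNAs of the endoplasmic reticulum's translocation and folding machinery were at least 2-fold lower in nucleus-like barcodes, 21 of 27 measured, with a median log2 ratio of -1.68 beside 0.04 over all genes. By the rule 19 of 27 were lower. The shares of all measured genes that were lower were 9.72% in unmixed barcodes and 11.4% by the rule. Their summed level was 2814 CPM (2666 to 2970) in nucleus-like and 8410 CPM (8275 to 8547) in cytoplasm-keeping barcodes. CALR, a calcium-binding chaperone of the lumen, had 202 CPM (164 to 247) in nucleus-like and 872 CPM (828 to 917) in cytoplasm-keeping barcodes, a log2 ratio of -2.10. HSPA5, the lumenal HSP70 chaperone BiP, had 209 CPM (170 to 254) in nucleus-like and 765 CPM (724 to 807) in cytoplasm-keeping barcodes. HSP90B1, the lumenal HSP90, had 194 CPM (156 to 238) in nucleus-like and 730 CPM (691 to 772) in cytoplasm-keeping barcodes. The CALR, HSPA5 and HSP90B1 intervals do not overlap between the groups, but they cover counting error only. The share of all genes with such parted intervals is not given here. PDIA4, a disulfide isomerase, had the lowest log2 ratio of the group at -2.51, with 50.6 CPM in nucleus-like and 293 CPM in cytoplasm-keeping barcodes. SERP1, a small protein that stabilises nascent membrane proteins, was the single member above 0, with 143 CPM in nucleus-like and 108 CPM in cytoplasm-keeping barcodes. By barcode, the group's share of UMIs was 0.098 to 0.677% with a median of 0.283% in nucleus-like barcodes, against 0.21 to 1.51% with a median of 0.848% in cytoplasm-keeping barcodes, so the ranges overlap.

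Several of these genes are textbook targets of the unfolded protein response, which acts through the ER stress response element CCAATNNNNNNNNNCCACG. The element was searched on both strands of the RefSeq promoter windows (GRCh38.p14, 250 bases before to 50 after each gene's start). It was found in 6 of 23 group members with a window (HSPA5, HSP90B1, CALR, CANX, PDIA6 and SERP1), or 26.1%. Over all 27305 genes with a window, these 6 included, it was found in 0.0916%. The list was drawn up with known targets in it, so its share describes the list and not the contrast between the groups. SERP1, which was not lower, is among the 6. Whether the element has a part in the RNA difference was not tested. The last 150 bases before the start are shown for 3 of the genes that hold the element and whose RNA was at least 2-fold lower. CALR meets both conditions too and is not shown. Capitals mark the fixed bases of the element, which starts 86 bases before the gene start in PDIA6 (chr2:10812786-10812935, minus strand), 66 before it in HSPA5 (chr9:125241344-125241493, minus strand), and 89 before it, on the opposite strand, in HSP90B1 (chr12:103930260-103930409, plus strand).
PDIA6: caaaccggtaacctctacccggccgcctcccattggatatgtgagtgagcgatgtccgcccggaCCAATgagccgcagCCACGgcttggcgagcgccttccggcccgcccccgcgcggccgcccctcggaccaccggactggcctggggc
HSPA5: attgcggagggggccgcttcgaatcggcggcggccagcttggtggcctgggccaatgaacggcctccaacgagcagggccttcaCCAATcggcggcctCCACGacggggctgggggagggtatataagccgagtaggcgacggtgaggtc
HSP90B1: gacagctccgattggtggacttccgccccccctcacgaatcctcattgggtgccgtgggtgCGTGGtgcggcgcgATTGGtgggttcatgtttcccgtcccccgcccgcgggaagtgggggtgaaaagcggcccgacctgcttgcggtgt

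Ribosomal protein messenger RNAs were lower as a body. All 47 large subunit members had a ratio below 0, 27 of them at least 2-fold lower, with a median log2 ratio of -1.07. All 32 small subunit members were below 0, 16 at least 2-fold lower, with a median of -1.003. Over all barcodes of the rule 46 of 47 and 31 of 32 were below 0, but 7 of 47 and 3 of 32 were at least 2-fold lower. Without the 1 nucleus-like barcode rich in ribosomal protein RNA, 28 of 47 and 23 of 32 were. Over all measured genes 9.72% were lower in unmixed barcodes and 11.4% by the rule. The counts over all barcodes of the rule thus lay near the share of all genes. RPS2 had 447 CPM in nucleus-like and 1467 CPM in cytoplasm-keeping barcodes. RPLP1, an acidic stalk protein of the large subunit, had 228 CPM in nucleus-like and 767 CPM in cytoplasm-keeping barcodes. RPL31 was closest to 0 in the large subunit, with a log2 ratio of -0.13. These genes have many processed pseudogenes, and how reads were divided among copies is not given in the sources used here. By barcode, ribosomal protein UMIs were 0.697 to 5.37% with a median of 1.55% in nucleus-like barcodes, against 1.40 to 5.65% with a median of 3.36% in cytoplasm-keeping barcodes. Of 21 translation factors, 7 were at least 2-fold lower (2 of 21 by the rule, also near the share of all genes). EEF2, the elongation factor that moves the ribosome along, had a log2 ratio of -2.26, and EEF1A1, which delivers aminoacyl-tRNA, had -1.48. EIF3H, an initiation factor subunit, stood at 0.26.

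The 10 lowest ratios among genes with at least 200 UMIs in unmixed barcodes were those of MTRNR2L12 and of 9 genes for proteins of the cell surface, secretory pathway or lysosome (CHPF, CLDN7, VGF, LAMB3, SDC1, SDC4, CTSD, IGFBP6 and EPCAM). Of 16 measured epithelial genes 15 were at least 2-fold lower, with a median log2 ratio of -2.23 and a summed level of 798 CPM in nucleus-like and 3295 CPM in cytoplasm-keeping barcodes. By the rule 17 of 18 were lower. Among all measured genes 9.72% were lower in unmixed barcodes, and 11.4% by the rule. EPCAM, an epithelial adhesion molecule, had 50.6 CPM in nucleus-like and 325 CPM in cytoplasm-keeping barcodes. KRT7, an intermediate filament protein of simple epithelia, had 71.6 CPM in nucleus-like and 372 CPM in cytoplasm-keeping barcodes. ESRP1, an epithelial splicing factor of the nucleus, had 1 UMI in nucleus-like and 78 UMIs in cytoplasm-keeping barcodes. Of 15 measured mesenchymal genes 10 were at least 2-fold lower, with a median of -1.45 (10 of 17 by the rule). VIM, the mesenchymal filament protein, had 381 CPM in nucleus-like and 1041 CPM in cytoplasm-keeping barcodes. TGFBI had 659 CPM in nucleus-like and 1953 CPM in cytoplasm-keeping barcodes. Transcripts of the transcription factors ZEB1 and ZEB2, which repress epithelial genes, lay on the other side of 0, at 0.55 and 0.59. Among unmixed barcodes the S100A9 profile still took a median of 3.43% of ATAC counts in nucleus-like and 5.68% in cytoplasm-keeping barcodes. EPCAM had 354 CPM in 282 unmixed barcodes of the S100A9 line, a level near that of the cytoplasm-keeping barcodes. Whether RNA of that line has a part in the difference was not tested. With a limit of 10% in place of 15% the medians were -2.04 for epithelial and -1.48 for mesenchymal genes.

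All 9 measured cathepsins, the proteases of the lysosome, were at least 2-fold lower, with a median of -1.53 (11 of 11 by the rule). CTSD had 56.9 CPM (37.5 to 82.8) in nucleus-like and 417 CPM (387 to 448) in cytoplasm-keeping barcodes. Of 8 protein disulfide isomerases 6 were lower (6 of 8 by the rule), of 7 laminin chains 4 (4 of 7) and of 6 keratins 4 (5 of 8). The syndecans SDC1 and SDC4, heparan sulfate proteoglycans of the surface, had log2 ratios of -2.92 and -2.90, and LAMB3, a laminin chain, had -2.94. CHPF, a Golgi enzyme that builds chondroitin, had -3.69. Of 11 MHC class I genes 8 were lower (6 of 12 by the rule). B2M, the light chain of class I molecules, had 472 CPM in nucleus-like and 1534 CPM in cytoplasm-keeping barcodes. These families were grouped by symbol after the data were seen. Among all measured genes 9.72% were lower, and 11.4% by the rule.

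Cytosolic and mitochondrial proteins made on free ribosomes gave more mixed counts. Of 23 actin cytoskeleton and calcium-binding genes 8 were lower, with a median of -0.70 (3 of 23 by the rule), and ACTB, cytoplasmic actin, had 320 CPM in nucleus-like and 1475 CPM in cytoplasm-keeping barcodes. Of 13 glycolysis enzymes 1 was lower, GAPDH, at -1.87, while the list's median was -0.66 (1 of 17 by the rule). Of 39 nuclear-encoded respiratory chain subunits 10 were lower (median -0.67), of 22 proteasome subunits 4 (median -0.55), and of 56 mitochondrial ribosomal proteins 6 (median -0.05). By the rule these counts were 5 of 42, 0 of 23 and 6 of 74. Over all measured genes 9.72% were lower in unmixed barcodes and 11.4% by the rule. Glycolysis enzymes and mitochondrial ribosomal proteins lay near or under that share. Of 13 glutathione, ferritin and redox genes 8 were lower (median -1.12), and 3 of 13 by the rule. Of 15 heat shock and unfolded protein response genes 4 were lower (3 of 18 by the rule, with 1 higher), among them HSP90AA1, the cytosolic HSP90, with 402 CPM in nucleus-like and 1607 CPM in cytoplasm-keeping barcodes. Its log2 ratio was 0.16 by the rule with 2000 to 8000 UMIs per barcode, and -1.78 in unmixed barcodes with 2000 to 12000. MTRNR2L12, which is nearly identical to mitochondrial ribosomal RNA and so follows the rule's own quantity, had 50.6 CPM in nucleus-like and 1310 CPM in cytoplasm-keeping barcodes.

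Noncoding RNAs held more of the UMIs in nucleus-like barcodes. Long noncoding RNAs, as RefSeq classes the measured genes, gave 12.1% of UMIs in nucleus-like and 8.34% in cytoplasm-keeping barcodes, of which MALAT1 alone gave 7.28% in nucleus-like and 4.49% in cytoplasm-keeping barcodes. Of 329 long noncoding RNAs 35 were at least 2-fold higher and 5 lower, while by the rule 94 of 673 were higher and 81 lower. Over all genes 2.17% were higher and 9.72% lower in unmixed barcodes, and 3.78% and 11.4% by the rule. MALAT1 had 72766 CPM (72000 to 73537) in nucleus-like and 44869 CPM (44555 to 45184) in cytoplasm-keeping barcodes, a log2 ratio of 0.70. By barcode it took 1.09 to 16.9% of UMIs with a median of 6.90% in nucleus-like barcodes, against 0.247 to 10.0% with a median of 4.26% in cytoplasm-keeping barcodes. In UMIs per barcode MALAT1 was nevertheless lower, with a mean of 493 in nucleus-like and 870 in cytoplasm-keeping barcodes. NEAT1 had 7662 CPM in nucleus-like and 8198 CPM in cytoplasm-keeping barcodes, a log2 ratio of -0.10. By the rule 1 of 12 listed nuclear-retained RNAs was at least 2-fold higher and 2 lower. In unmixed barcodes 1 of 10 was higher and none lower, namely PVT1, with 6859 CPM (6626 to 7099) in nucleus-like and 3180 CPM (3097 to 3265) in cytoplasm-keeping barcodes. Of 141 measured antisense RNAs 22 were higher and 1 lower, and by the rule 60 of 311 were higher and 22 lower. Whether counting used strand is not given in the sources used here, so reads of an antisense RNA and of the gene opposite it cannot be told apart.

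Among protein-coding and host genes, MCL1, a short-lived inhibitor of apoptosis, had 192 CPM (154 to 235) in nucleus-like and 80.8 CPM (68.0 to 95.2) in cytoplasm-keeping barcodes. GFPT2, an enzyme of the hexosamine pathway, had a log2 ratio of 1.26, and MAT2A, whose product makes S-adenosylmethionine and whose transcript is known to be held in the nucleus with a retained intron, had 1.02. SNHG1, a snoRNA host whose spliced RNA decays quickly, had 110 CPM in nucleus-like and 41.8 CPM in cytoplasm-keeping barcodes, the single one past 2-fold among 16 listed snoRNA hosts and cytoplasmic noncoding RNAs (5 of 18 by the rule). With 2000 to 8000 UMIs per barcode, and 5 cytoplasm-keeping barcodes, SNHG1 turned to -0.56 and SNHG26 to -0.41 by the rule, while in unmixed barcodes with 2000 to 12000 UMIs they were at 1.47 and 1.26. Among genes with at least 200 UMIs, the 10 highest ratios also held LCN2, PVT1, FILIP1L (1.17), SNHG26 (1.07), LINC00513 (1.07), CDC42EP3 (1.04) and EEFSEC (1.03). Of these, LCN2 is also a listed marker of the S100A9 line. Genes with 50 to 200 UMIs reached higher ratios, up to 2.15 in SDK1. Splicing factors and nuclear RNA-binding proteins had a median log2 ratio of 0.34, with 21 of 31 above 0 and none past 2-fold either way, also by the rule. The median for 243 ZNF zinc finger genes was 0.21, with 9 higher and 1 lower (27 and 6 of 373 by the rule). For 17 long genes at common fragile sites it was 0.30, with 1 lower (3 of 19 by the rule). Cell cycle lists stayed near 0: 1 of 26 S phase genes was higher and 2 lower (median -0.18), and 1 of 39 G2 and mitosis genes was higher and 3 lower (median 0.16). By the rule 2 of 40 and 5 of 48 were higher and 1 of each lower, with medians of 0.15 and 0.49. The shares over all genes were 2.17% higher and 9.72% lower in unmixed barcodes, and 3.78% and 11.4% by the rule. Of 6 histone genes 2 were higher and 1 lower (5 of 11 higher by the rule), and of 11 immediate early genes none was past 2-fold (1 of 15 higher by the rule).

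With TMM factors in place of the totals, the median over all genes by the rule was -0.16, against 0.03 with the totals, and in unmixed barcodes the medians became -1.85 for the endoplasmic reticulum list, 0.17 for splicing factors and -0.01 for G2 and mitosis genes, whose sign turned. MALAT1 stood at 0.52 and PVT1 at 0.93 on that scale, so PVT1 was then under 2-fold. When unmixed barcodes were also limited to 2000 to 12000 UMIs, which left 66 nucleus-like and 20 cytoplasm-keeping barcodes, the median was -1.76 for the endoplasmic reticulum list, -1.27 for the large subunit, -1.18 for the small subunit and 0.30 for splicing factors.

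**Figure D2:**
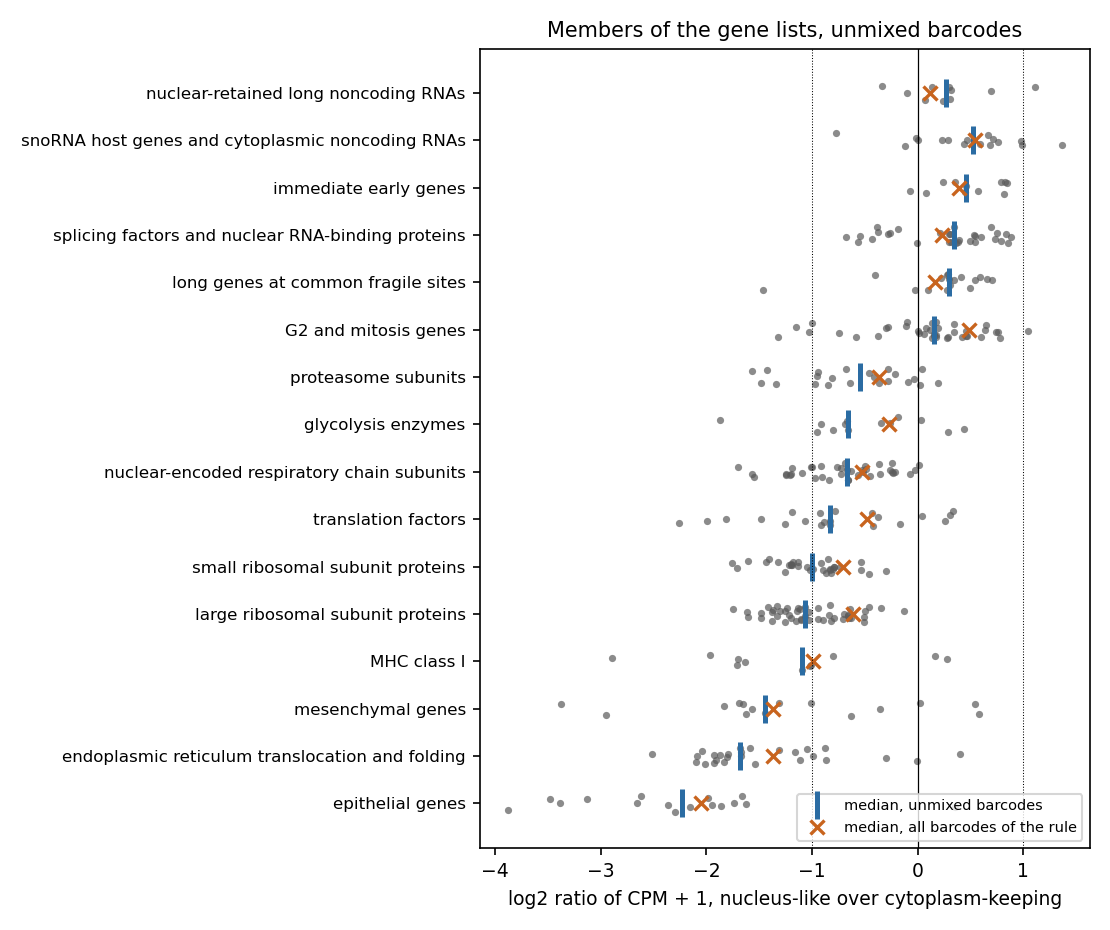
Log2 ratio of CPM + 1, nucleus-like over cytoplasm-keeping, for the measured members of 16 gene lists in unmixed barcodes (points), with the median of each list in unmixed barcodes (blue bar) and over all barcodes of the rule (orange cross) and dotted lines at a 2-fold change. Epithelial, endoplasmic reticulum and mesenchymal genes lie furthest to the lower side, at medians of -2.23, -1.68 and -1.45, and splicing factors lie at 0.34.

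The length of the gene ordered the ratios as well. Protein-coding genes that span under 5 kb on the genome had a median log2 ratio of -0.82, and 158 of 388 were at least 2-fold lower. The median was -0.51 for 5 to 10 kb, -0.17 for 10 to 20 kb, 0.01 for 20 to 50 kb, 0.08 for 50 to 100 kb, 0.11 for 100 to 200 kb and 0.16 above 200 kb, where 20 of 763 were lower. By the rule 161 of 694 genes under 5 kb (median -0.44) and 100 of 914 above 200 kb (median 0.12) were lower. Over all measured genes 9.72% were lower in unmixed barcodes and 11.4% by the rule. Genes above 200 kb thus lay under that share in unmixed barcodes and near it by the rule. The medians above 0 are smaller than the shift that TMM factors gave. Ribosomal protein genes and many other cytoplasmic messengers are short, so the length classes and the gene lists share members. The largest absolute rises after MALAT1 and PVT1 were in long genes: PLCG2, a phospholipase, had 2970 CPM in nucleus-like and 2064 CPM in cytoplasm-keeping barcodes, GPC6, a glypican, had 3206 CPM in nucleus-like and 2371 CPM in cytoplasm-keeping barcodes, and TRIO, a guanine nucleotide exchange factor, had 2545 CPM in nucleus-like and 1755 CPM in cytoplasm-keeping barcodes.

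Along the mitochondrial share, the endoplasmic reticulum, ribosomal protein and epithelial lists had their widest gap between the steps on either side of 4%. In 6 steps of MT- share (under 0.5%, 0.5 to 1%, 1 to 4%, 4 to 8%, 8 to 20% and over 20%, with 53, 17, 6, 6, 84 and 38 unmixed barcodes), the endoplasmic reticulum list had 2530, 3830, 3793, 6643, 8495 and 10052 CPM. Ribosomal protein genes had 14588, 18806, 18255, 29505, 32722 and 40562 CPM. Both were higher at every step above 4% than at any below it. Epithelial genes had 793, 818, 1153, 2883, 3315 and 3761 CPM. MALAT1 had 75308, 63694, 46492, 31686, 45500 and 37501 CPM, which is not a steady order, and PVT1 was highest at 0.5 to 1%, with 9288 CPM. The 2 middle steps hold 6 barcodes each.

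**Figure D3:**
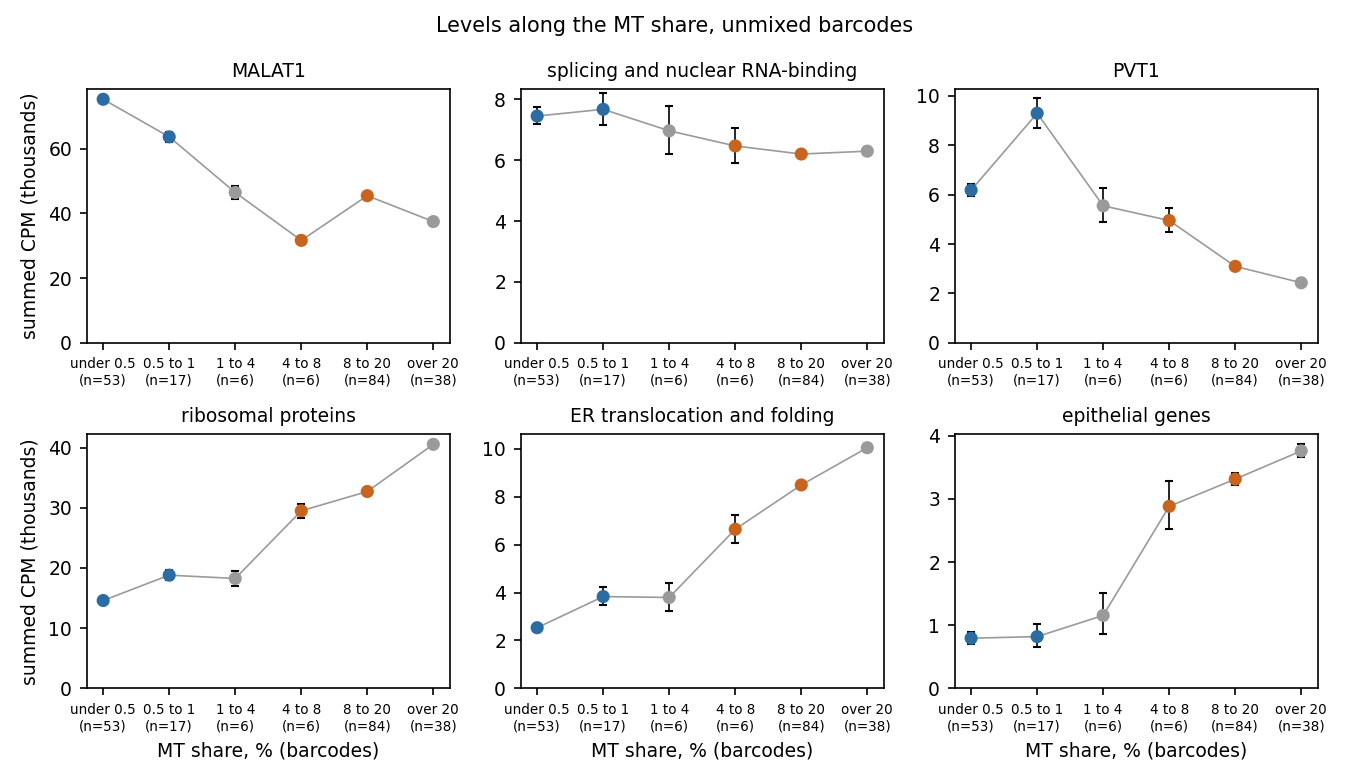
Summed CPM divided by 1000 (vertical axis, each panel with its own scale) for 6 lists or genes in unmixed barcodes of the DHRS2 line at 6 steps of mitochondrial share (horizontal axis, low to high), with exact Poisson intervals. Ribosomal protein and endoplasmic reticulum levels are higher at all steps above 4% than below it, while MALAT1 is highest under 0.5%.

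Fewer peaks than genes passed a 2-fold change. Over all barcodes of the rule, 32354 peaks had at least 100 counts, of which 253 (0.782%) were at least 2-fold higher and 947 (2.93%) at least 2-fold lower in nucleus-like barcodes. Among unmixed barcodes 13691 peaks were measured, of which 59 (0.431%) were higher and 75 (0.548%) lower. With 2000 to 12000 UMIs per barcode, 140 of 2752 unmixed peaks were higher and 31 lower. The order depended on depth. With 2000 to 8000 UMIs by the rule, 272 of 1148 peaks were higher and 129 lower. That was a larger share than among genes, where 303 of 1841 were higher and 124 lower. Peak counts within 2000 bases of a gene start made up 55.2% of all in nucleus-like and 54.0% in cytoplasm-keeping barcodes. The share of each of the 22 autosomes differed by log2 ratios of -0.18 to 0.10.

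In unmixed barcodes, most genes whose RNA differed had promoter ratios near those of all genes. Of the 784 genes with lower RNA, 462 had promoter peaks with at least 100 counts, and their median promoter log2 ratio was 0.06 beside a median RNA ratio of -1.36, with no promoter past 2-fold either way. Of the 175 genes with higher RNA, 77 had one, with medians of 0.05 for the promoter and 1.09 for the RNA. The median over all 5042 genes with a promoter peak was 0.05, with 8 promoters (0.16%) at least 2-fold higher and 15 (0.30%) lower. Promoters past 2-fold were thus rare among all genes, and their absence among the 462 and the 77 lies near that share. By the rule, where mixed barcodes are included, 31 of 729 genes with lower RNA (4.25%) had a promoter at least 2-fold lower, against 1.20% of all 8275 genes. Below the limit of 100 counts, the promoter of LAMB3 had 14 counts in nucleus-like and 65 counts in cytoplasm-keeping unmixed barcodes, a log2 ratio of -1.32, and that of SPINT1, an epithelial protease inhibitor, 2 counts in nucleus-like and 29 counts in cytoplasm-keeping barcodes. For 22 members of the endoplasmic reticulum list the median promoter ratio was -0.05 and the median RNA ratio -1.67. The start of HSPA5 had 65.0 CPM of peak counts (50.1 to 82.9) in nucleus-like and 45.4 (35.8 to 56.8) in cytoplasm-keeping barcodes. That of HSP90B1 had 38.3 (27.1 to 52.6) in nucleus-like and 52.2 (41.9 to 64.3) in cytoplasm-keeping barcodes, and that of CALR 90.2 (72.5 to 111) in nucleus-like and 108 (92.6 to 124) in cytoplasm-keeping barcodes. All 3 pairs of intervals overlap.

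**Figure D4:**
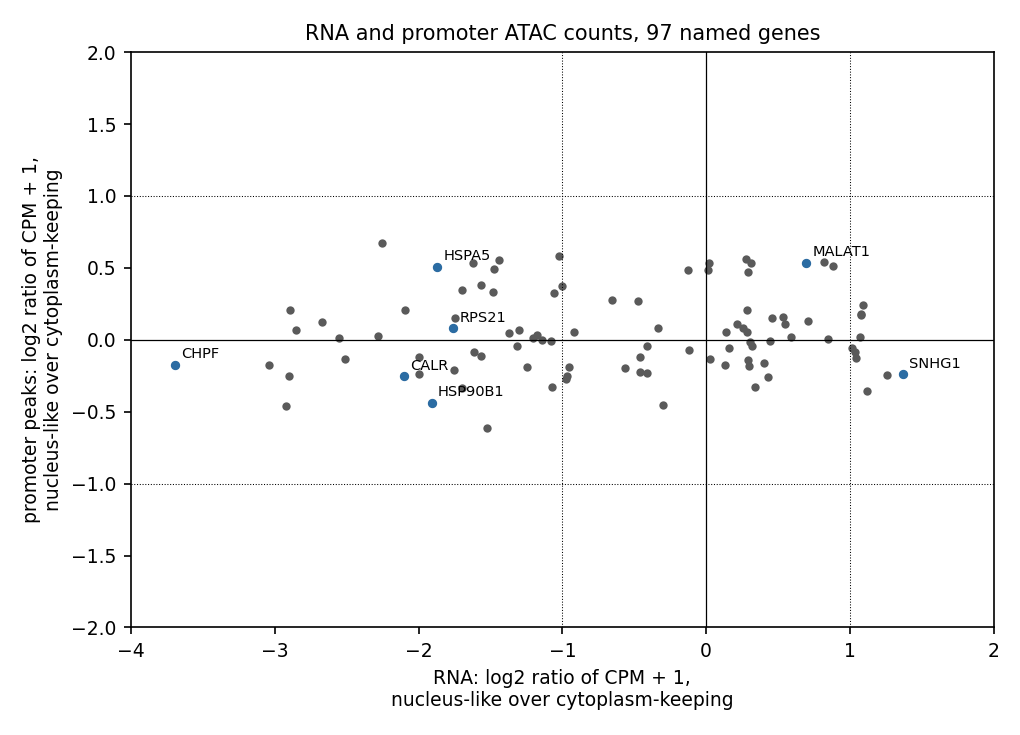
Log2 ratio of RNA (horizontal axis) against log2 ratio of promoter peak counts (vertical axis), nucleus-like over cytoplasm-keeping, for 97 named genes with at least 100 promoter counts in unmixed barcodes. RNA ratios run from -3.69 to 1.37, with 41 genes at least 2-fold lower and 10 at least 2-fold higher, while promoter ratios stay between -0.61 and 0.67.

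Among peaks with at least 200 counts, those with the lowest ratios lay where the nuclear genome is known to carry copies of mitochondrial DNA. The peak at chr1:633526-634475, nearest to AC114498.1, had 6 counts in nucleus-like and 230 counts in cytoplasm-keeping unmixed barcodes, or 3.02 CPM in nucleus-like and 67.8 CPM in cytoplasm-keeping barcodes, a log2 ratio of -4.10. The peak at chr17:22520957-22521853, nearest to MTRNR2L1, was lowest by the rule, with 2 counts in nucleus-like and 594 counts in cytoplasm-keeping barcodes. Reads of mitochondrial DNA can be placed at such copies, and these peaks follow the quantity that chose the groups. The next lowest unmixed peaks of that depth, at chr7:33987002-33987870 (nearest to BMPER) and chr7:19958073-19958966, had log2 ratios of -1.27 and -1.17.

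Around MYC on chromosome 8, the RNA shares of PVT1 and MYC and the share of peak counts were higher in nucleus-like barcodes, while CASC11 was not. In UMIs per barcode PVT1 was lower, with a mean of 46.5 in nucleus-like and 61.7 in cytoplasm-keeping barcodes. Among unmixed peaks with at least 200 counts, that with the highest ratio lay in PVT1 at chr8:127917264-127917976, with 139 counts in nucleus-like and 100 counts in cytoplasm-keeping barcodes, or 70.1 CPM in nucleus-like and 29.5 CPM in cytoplasm-keeping barcodes, a log2 ratio of 1.22. Another of the 3 highest of that depth, chr8:127760450-127761290, lay nearest to CASC11. The 160 peaks within 500 kb of MYC held 1.04% (1.02 to 1.06%) of peak counts in nucleus-like and 0.654% (0.642 to 0.667%) in cytoplasm-keeping barcodes. By barcode the medians were 0.875% in nucleus-like and 0.418% in cytoplasm-keeping barcodes, and the highest barcodes had 4.78% in nucleus-like and 3.60% in cytoplasm-keeping barcodes, so the groups overlap broadly. In the 166 unmixed barcodes of the DHRS2 line with an MT- share of up to 20% the window held 0.7998% of peak counts, against 0.0637 to 0.154% in those of the other 4 lines. MYC itself, a transcription factor that drives growth, had 154 CPM (120 to 193) in nucleus-like and 85.9 CPM (72.7 to 101) in cytoplasm-keeping barcodes, and CASC11, a noncoding RNA next to it, 21.1 CPM (10.1 to 38.7) in nucleus-like and 31.5 CPM (23.7 to 41.0) in cytoplasm-keeping barcodes. Across barcodes with at least 5000 peak counts, PVT1's share of UMIs and the window's share of peak counts went together, with Spearman's rho of 0.84 over 65 nucleus-like and 0.76 over 80 cytoplasm-keeping barcodes. These barcodes come from 1 library and share its depth, and rho with peak counts was between -0.17 and -0.08 for both shares. The part of the window in the PVT1 difference between the groups was not tested.

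**Figure D5:**
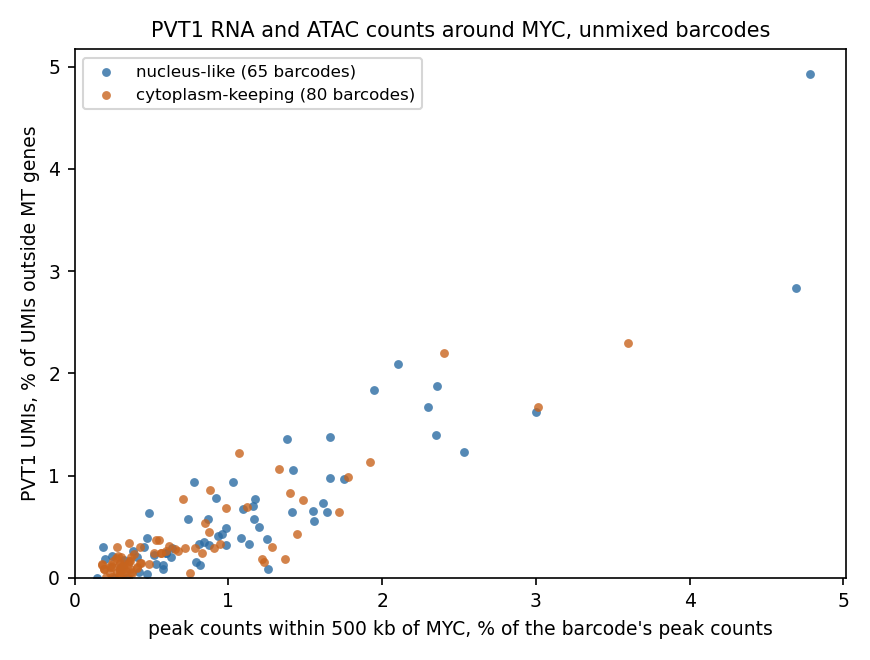
PVT1 share of UMIs outside MT- genes (percent, vertical axis) against the share of peak counts within 500 kb of MYC (percent, horizontal axis) for 65 nucleus-like and 80 cytoplasm-keeping unmixed barcodes with at least 5000 peak counts. Both groups spread along 1 rising band, with medians of 0.930% (window) and 0.412% (PVT1) in nucleus-like and 0.418% and 0.192% in cytoplasm-keeping barcodes.

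The same split could be made in 2 other lines, with 457 nucleus-like and 59 cytoplasm-keeping unmixed barcodes of the RBFOX3 line and 240 nucleus-like and 134 cytoplasm-keeping of the SLC30A8 line. The S100A9 and GRIA4 lines had 8 and 5 unmixed nucleus-like barcodes and are not compared. No test of a difference between lines is possible with 1 library, so the values are set side by side. In the RBFOX3 line 365 of 9444 genes (3.86%) were at least 2-fold higher and 302 (3.2%) lower, and in the SLC30A8 line 85 of 9696 (0.877%) were higher and 497 (5.13%) lower. Of the 27 endoplasmic reticulum genes, 21 were lower in the DHRS2 line, 14 in the RBFOX3 line (median -1.01) and 19 in the SLC30A8 line (median -1.38). Cathepsins were lower in 9 of 9, 6 of 8 and 7 of 9 in that order of lines. MTRNR2L12 had log2 ratios of -4.67, -4.72 and -4.52.

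Of the measured epithelial genes, 15 of 16 were at least 2-fold lower in the DHRS2 line, 5 of 11 in the RBFOX3 line (median -0.83) and 2 of 9 in the SLC30A8 line (median -0.79). EPCAM had log2 ratios of -2.66, -1.18 and -0.79. Large subunit ribosomal proteins were lower in 27 of 47, 6 of 47 (median -0.62) and 1 of 47 (median -0.69), and mesenchymal genes in 10 of 15, 1 of 13 and 3 of 13. MALAT1 stood at 0.70 in the DHRS2 line, -0.02 in the RBFOX3 line and 0.21 in the SLC30A8 line. PVT1 stood at 1.11, 0.18 and 0.40, and MCL1 at 1.24, -0.03 and 0.28. Splicing factors had medians of 0.34, 0.11 and 0.10. Markers of the S100A9 line, LCN2 among them, summed to 512, 654 and 494 CPM in nucleus-like barcodes of these lines. In cytoplasm-keeping barcodes they summed to 338, 323 and 292 CPM, so their rise is not particular to the DHRS2 line. Where that RNA came from was not tested.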

How the data were processed

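Cell Ranger ARC 2.0.0 and GRCh38 are named in the submitters' processing notes. The values of the authors' deposited joint matrix are raw counts: UMIs per gene and counts per peak and barcode. Of the non-zero peak entries 83.3% are even, so peak intervals use counts divided by 2. How cells and peaks were called is not given in the sources used here.

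Members followed the rule given above. UMIs were summed per group and scaled to CPM without MT- genes, with a pseudocount of 1. A gene counted as measured from 50 UMIs over both groups and a peak from 100 counts, without the 13 MT- genes and 12 rule genes. The members and lists were chosen with earlier results of these data known. Line profiles for the ATAC mixture came from 46 to 159 barcodes a line with stricter marker limits, and 41 nucleus-like and 33 cytoplasm-keeping barcodes were among the 76 of the DHRS2 profile. Each barcode's weights were fitted by 60 steps of expectation maximisation. Scrublet (scanpy 1.11.5) removed the 87 highest scores of all barcodes, while its automatic threshold called 7. Genes were named by rule: the 10 highest and 10 lowest ratios with at least 200 UMIs, the 5 largest CPM rises and falls, and in each list the 3 with the most UMIs and both extremes. Peaks were named from 200 counts. Genes outside it (the symbol families, CANX, PDIA6, IFIT3, SDK1, MYC and CASC11 among them) were chosen after their values were seen. Tools were Python 3.11.15, numpy 2.4.6, scipy 1.17.1, pandas 2.3.3, edgeR 4.0.16 (TMM only) and R 4.3.3. The scripts were tested on simulated data. A result for 1 gene is not reported here.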

Additional observations from a re-analysis of the deposited data

How the results depend on the processing

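No paired analysis was possible because there is 1 library of each kind and no test. Genes at least 2-fold higher and lower numbered 438 and 1323 of 11598 measured by the rule. Leaving out mixed barcodes gave 175 and 784 of 8065 at the 15% limit (the same with the highest Scrublet scores left out too), 124 and 614 of 6717 at 10%, 223 and 802 of 9481 at 20%, and 173 and 323 of 3142 with 2000 to 12000 UMIs per barcode. The added Scrublet setting took out no further barcode, so its values only repeat those at 15%, also for peaks and single ratios below. With mixed barcodes left out and TMM factors 83 were higher. A pseudocount of 10 gave 134 and 738, a minimum of 1 UMI 2679 and 3198 of 24730, a minimum of 200 UMIs 81 and 633 of 6429, and a cytoplasm-keeping range of 4 to 10% gave 191 and 410 of 5259. Fewer or more genes were thus measured under most settings, and the counts move with that number. TMM and size factors each gave 236 higher, and MT- UMIs in the total 928 higher. With 2000 to 8000 UMIs per barcode, which left 60 nucleus-like and 5 cytoplasm-keeping barcodes, 303 were higher and 124 lower of 1841.

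Peaks higher and lower numbered 253 and 947 of 32354 by the rule. Leaving out mixed barcodes gave 59 and 75 of 13691 at 15% (the same with Scrublet), 38 and 41 of 8448 at 10%, 86 and 205 of 20201 at 20%, 140 and 31 of 2752 with 2000 to 12000 UMIs, and 39 and 102 with TMM factors. A minimum of 500 counts gave 5 and 8 of 4030, a minimum of 1 count 7257 and 23355 of 185122, binarised counts 67 and 218, and stricter markers (at least 5 UMIs and over 10 times the others) 103 and 307. TMM factors gave 159 higher, and 2000 to 8000 UMIs gave 272 higher and 129 lower of 1148.

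Some log2 ratios changed sign. ISG15 was at -1.998, -1.19, -2.11, -1.998 and -2.16 without mixed barcodes (at 15%, at 10%, with 2000 to 12000 UMIs, with Scrublet, with TMM factors), and at -2.11 without the 1 nucleus-like barcode rich in ribosomal protein RNA. LCN2 was at 1.22, 1.23, 0.52, 1.22 and 1.04 under the same settings and at 0.79 at 20%. The median of the S100A9 line's markers, to which LCN2 belongs, was 0.67, 0.39, 0.67 and 0.50 at 15%, at 10%, with Scrublet and with TMM factors. With 2000 to 8000 UMIs, ISG15 was at -4.28, RBMS3-AS2 at -0.30, TFRC at 0.0030, STARD4-AS1 at -0.48, SNHG26 at -0.41, SNHG1 at -0.56, HSP90AA1 at 0.16 and PRKCA-AS1 at -0.80. Apart from the mixed barcodes and the 1 named barcode, whose removal is the setting itself, the cause was not tested. Of 1903 values under all alternatives 1611 were classed as the same, 268 as moved and 24 as reversed. The repeats under the Scrublet setting are counted among them. Medians near 0 could change sign and still be classed as the same. S phase genes, for example, went from 0.15 by the rule to -0.35 without mixed barcodes and with TMM factors. A count of 1700 lower genes with TMM factors, against 1323, was also classed as the same.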
